A study of Mus musculus with 168 samples.

Results

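The Mir99, Mir100 and Mir125 families are 6 microRNA genes: Mir99a, Mir99b, Mir100, Mir125a, Mir125b-1 and Mir125b-2. They were taken by gene name from the annotation of the count table, which holds 1626 transcripts, of which 329 carry the name of a microRNA on the list the study tested. Their values were followed in the cortex of 168 mice, 8 (4 female and 4 male) for each of 7 genotypes at 2, 6 and 10 months (2m, 6m and 10m), 1 small RNA library per mouse. All mice were labelled C57BL/6, and per the methods the fathers were heterozygotes of each line and the mothers C57BL/6J. The mutant lines were heterozygous for a huntingtin (Htt) allele with a knocked-in CAG repeat, the expansion that causes Huntington's disease, next to a normal mouse allele. Q80, Q92, Q111, Q140 and Q175 carried long repeats, Q20 a short repeat and WT 2 normal alleles, with a CAG length (Q) taken as 7. Controls were Q20 and WT mice housed with them at 2m and 10m, and Q20 alone at 6m. Per the methods, the Q175 line arose by spontaneous expansion in the Q140 line, and no more than 1 mouse per sex and genotype came from a litter.

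The 8 libraries labelled as 6m WT are not listed in the methods and were all sequenced on lane 3. Their library numbers have the form of those of 2m and 10m, unlike the other 6m libraries. For the members other than Mir125b-1 they mostly stand far from the other 160. They are therefore described apart, and every result below leaves them out unless it names them. In bulk cortex, a lower level of a microRNA can come from fewer cells that make it or from less of it per cell, and these cannot be told apart. The library totals ran from 2041729 to 11646245 counts, with a median of 4810472. Every member was counted at least 2687 times in every library, so that the spread between mice, not counting, limits the precision. Within a group no pair of libraries agreed within sampling noise. Markers of neurons (Mir124a, Mir128, Mir9 and Mir138 genes, 9 of 10 listed with a transcript) summed to 83286 to 124220 CPM (counts scaled to a common library total). The liver marker Mir122 lay between 0.17 and 51.3 CPM, and the leukocyte marker Mir223 between 4.99 and 23.2. The choroid plexus list (5 of 5 with a transcript) summed to 2085 to 12345 CPM and the red blood cell list (2 of 3) to 176 to 520.

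A microRNA gene is transcribed as a long precursor and cut to a hairpin, and Dicer releases from it a short duplex. The strand kept in the Argonaute complex pairs with messenger RNAs through its seed, bases 2 to 8 from the 5′ end, and lowers their translation and stability. The Mir99 and Mir100 genes belong to an old family close to Mir10 and are known to restrain mTOR signalling. The Mir125 genes are related to lin-4, the first microRNA described in worms, are abundant in brain, and are known for roles in neuronal differentiation and at synapses. In mammals each Mir99 or Mir100 gene lies near a let-7 gene and a Mir125 gene.

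The mature 5p strands show why the genes fall into 2 groups. They are given 5′ to 3′ from RefSeq (GRCm38.p6), with the seed in capitals, and all 6 members matched an entry.
miR-99a-5p: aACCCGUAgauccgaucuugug
miR-99b-5p: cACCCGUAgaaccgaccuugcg
miR-100-5p: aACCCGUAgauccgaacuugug
miR-125a-5p: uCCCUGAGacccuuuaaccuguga
miR-125b-5p: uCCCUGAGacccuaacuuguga
Mir99a, Mir99b and Mir100 share the seed ACCCGUA, which 3 of 1679 mouse mature sequences in the table hold. Mir125a and both Mir125b genes share CCCUGAG, held by 5 of 1679. The other holders are miR-351-5p, miR-6367 and miR-6394. miR-99a-5p and miR-100-5p differ by 1 substitution, U16A, with positions counted from the 5′ end and the base of miR-99a first. miR-99a-5p and miR-99b-5p differ by 4, A1C, U11A, U16C and U21C. The aligned miR-125a-5p and miR-125b-5p are identical in 21 of 24 columns.

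Mir125b-1 and Mir125b-2 give the same 5p strand and can be told apart only by what flanks it and by their 3p strands, shown here for that reason, again with bases 2 to 8 in capitals.
miR-125b-1-3p: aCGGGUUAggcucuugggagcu
miR-125b-2-3p: aCAAGUCAgguucuugggaccu
The 3p strands differ at 5 positions, from miR-125b-1-3p to miR-125b-2-3p G3A, G4A, U7C, C11U and G20C. How reads of the shared 5p strand were assigned to the loci is not given in the sources used here. The counts of Mir125b-1 were not whole numbers in 168 of 168 libraries and those of Mir125b-2 in 167. The same held for Mir100 in 145 and Mir99a in 132, and in no library for Mir99b or Mir125a. A value for a single Mir125b locus is therefore uncertain, and the sum of both was fitted as well. Values of Mir99a and Mir100 are uncertain in the same way, as their counts were often not whole either. Their sum was not fitted, so that results below for either gene carry this limit.

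The nearest relatives by sequence, the Mir10 genes, are shown because their seed starts from the same bases.
miR-10a-5p: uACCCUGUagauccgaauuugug
miR-10b-5p: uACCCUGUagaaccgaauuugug
Their seed ACCCUGU was held by 2 of 1679 sequences and by no member.

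The 6 genes lie in 3 clusters, all on the plus strand (GRCm38). Mir99a (chr16:77598936-77599000) and Mir125b-2 (chr16:77646273-77646343) both lie in introns of the long noncoding host gene Mir99ahg, with starts 47337 bp apart. Mir125b-2 also overlaps an exon of C130023A14Rik. Mir99b (chr17:17830188-17830257) lies in an intron of Spaca6, a gene needed for sperm-egg fusion, and Mir125a (chr17:17830812-17830879) overlaps an exon of it, 624 bp further on. Mir100 (chr9:41531425-41531504) and Mir125b-1 (chr9:41581926-41582002) lie in introns of 3110039I08Rik and Gm49317, 50501 bp apart. Mir125b-1 overlaps an exon of the sense intronic gene Gm28119, and Mir100 an exon of the noncoding gene Gm48742 on the opposite strand. Mirlet7c-1 starts 721 bp from Mir99a and Mirlet7a-2 5291 bp from Mir100. Mirlet7e, 164 bp from Mir99b, was not analysed here.

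All 6 members were abundant in cortex. By mean CPM over 160 libraries (normalized by the trimmed mean of M values, TMM), Mir125a ranked 9 of 329 microRNAs with 17759 ± 3122 (SD), Mir125b-2 13 with 12063 ± 2942, and Mir99b 29 with 4461 ± 634. Mir100 ranked 39 with 2386 ± 404, Mir125b-1 44 with 2001 ± 236 and Mir99a 56 with 1173 ± 135. Per kilobase of the annotated hairpin the order was the same. The mean CPM per kb was 261158 for Mir125a, 169897 for Mir125b-2, 63730 for Mir99b, 29829 for Mir100, 25987 for Mir125b-1 and 18040 for Mir99a. The first 3 steps of this order held in 160 of 160 libraries each, and Mir125b-1 exceeded Mir99a in 158. The step from Mir100 to Mir125b-1 did not exceed the spread, as Mir100 was higher per kb in 114 of 160 libraries. It was higher in 38 of 56 at 2m, in 21 of 48 at 6m and in 55 of 56 at 10m. In 2 of the 3 clusters the partners were thus far apart in level, with the Mir125 gene above its Mir99 partner. Mir125b-1, in the remaining cluster, lay near Mir100.

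**Figure D1:**
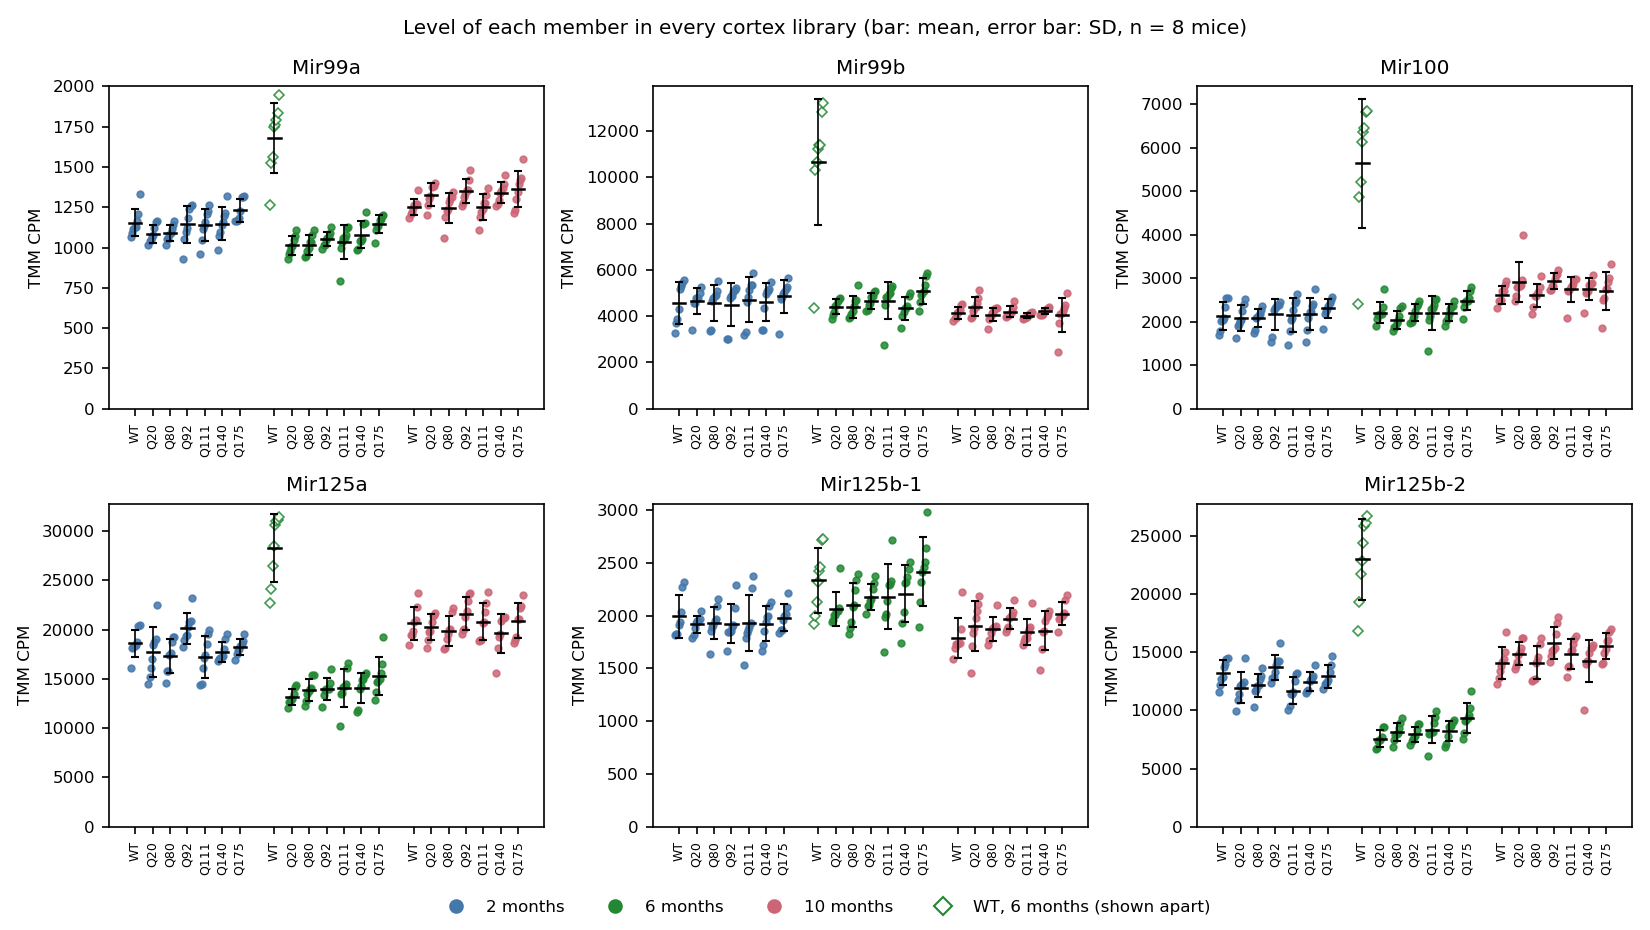
TMM CPM of each of the 6 members (vertical axes, linear from 0) for the 7 genotypes at 2m, 6m and 10m (horizontal axis). Each point is 1 mouse, with the mean and SD of 8 mice in black. The 8 libraries labelled 6m WT are open diamonds and lie above the other 6m groups except for Mir125b-1 and for 1 library in Mir99b and Mir100.

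From 2m to 10m, Mir99a, Mir100, Mir125a and Mir125b-2 rose and Mir99b fell, whereas the test did not call Mir125b-1. Over all microRNAs, 66.2% were called for age and 31.7% were called as higher at 10m, so that 5 of 6 members called, 4 of them upward, is not unusual by number. Samples of different ages carry different library numbers and almost separate lanes (6 to 8 at 10m), so that age and sequencing cannot be told apart. Markers of other cells moved with age as well. Group medians of the summed oligodendrocyte markers were 3257 to 3512 CPM at 2m and 4420 to 4889 at 10m, and those of the red blood cell list 280 to 327 and 364 to 393. The neuronal list had medians of 94860 to 102984 at 2m and 103116 to 113530 at 10m. Their part in the age differences was not tested.

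Mir100, which differs from Mir99a by a single base, changed most. Over the 56 mice of each age its lowest, median and highest CPM were 1461, 2228 and 2753 at 2m and 1868, 2773 and 3990 at 10m. The ranges overlapped, and 52 of 56 libraries at 10m lay above the 2m median. The increase was 0.35 ± 0.04 on the log2 scale (SE, n = 56 mice per age; 1.27-fold, edgeR quasi-likelihood test, adjusted p = 3.41e-15). Mir125b-2 went from 9913, 12516 and 15788 CPM (lowest, median, highest) at 2m to 10009, 14952 and 18061 at 10m, with 54 of 56 libraries above the 2m median. Its increase was 0.23 ± 0.03 on the log2 scale (adjusted p = 2.40e-14). Mir99a, from the same host gene, had 931, 1137 and 1332 CPM at 2m and 1057, 1302 and 1547 at 10m, an increase of 0.19 ± 0.02 on the log2 scale (adjusted p = 5.74e-16). Mir125a, the most abundant member, rose by 0.18 ± 0.02 (adjusted p = 1.12e-10), with 51 of 56 libraries above the 2m median.

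Mir99b was the single member that fell. Its CPM ran from 3018 over a median of 4864 to 5883 at 2m and from 2465 over 4154 to 5139 at 10m, and 2 of 56 libraries at 10m lay above the 2m median. The change was −0.16 ± 0.04 on the log2 scale (adjusted p = 1.81e-04). At 2m its values fell into separate ranges. Libraries under 4000 CPM numbered 13 of 56, came from all 7 genotypes, and 9 of them were among the 13 libraries on lanes 3 and 7. The median was 4811 CPM on lane 1, 5014 on lane 2, 3399 on lane 3 and 3388 on lane 7, where 4 of 4 libraries were under 4000. Mir100 had the same lane order at these lanes, with medians of 2076, 2311, 1842 and 1773 CPM. The part of the lane in the age difference was not tested. Mir125b-1 changed by −0.04 ± 0.02 (adjusted p = 0.137), and 23 of 56 libraries at 10m lay above its 2m median. With library size alone, with a stricter filter on low counts or with all transcripts fitted, it was called as lower at 10m (−0.12, −0.06 and −0.08 on the log2 scale). The let-7 genes of the clusters were not called (Mirlet7c-1 −0.06, Mirlet7a-2 0.02 on the log2 scale). Of the sequence relatives, Mir10a rose by 0.22 and Mir10b fell by 0.50.

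The 6m levels are given as a description. Mir99a, Mir125a and Mir125b-2 had their lowest median at 6m and Mir125b-1 its highest, while Mir99b lay between 2m and 10m. The median of Mir100 was also lowest at 6m, but close to that of 2m. Mir125b-2 had 6053, 8136 and 11681 CPM (lowest, median, highest of 48 libraries), so that its median was below the lowest library of 2m (9913) and of 10m (10009). Mir125a had a median of 14015 CPM at 6m, against 18301 at 2m and 20699 at 10m. Mir125b-1 went the other way, with medians of 2140 at 6m, 1924 at 2m and 1884 at 10m. The medians of Mir99a were 1137, 1048 and 1302 at 2m, 6m and 10m, those of Mir99b 4864, 4628 and 4154, and those of Mir100 2228, 2217 and 2773. Markers of endothelium and vessel wall (3 of 5 with a transcript: Mir126a, Mir143 and Mir145a) moved with the 6m libraries. The group medians of their summed level were 35365 to 39814 CPM at 6m, 21309 to 24059 at 2m and 17832 to 20204 at 10m. The red blood cell list had lower medians at 6m (217 to 243) than at either other age, and the neuronal list had medians of 86778 to 97008. Their part in the 6m levels was not tested, and age and sequencing run cannot be told apart.

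The ratio of the Mir125b loci, which needs no normalization between libraries, showed the 6m difference most clearly. The count of Mir125b-1 divided by that of Mir125b-2 had a median of 0.151 at 2m, 0.267 at 6m and 0.129 at 10m. The 48 libraries of 6m ran from 0.222 to 0.307 and did not overlap any other library, the highest of which was 0.208 at 2m. Within an age the genotypes overlapped. As the loci share their 5p strand, the ratio can depend on how shared reads were assigned, which was not tested.

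**Figure D2:**
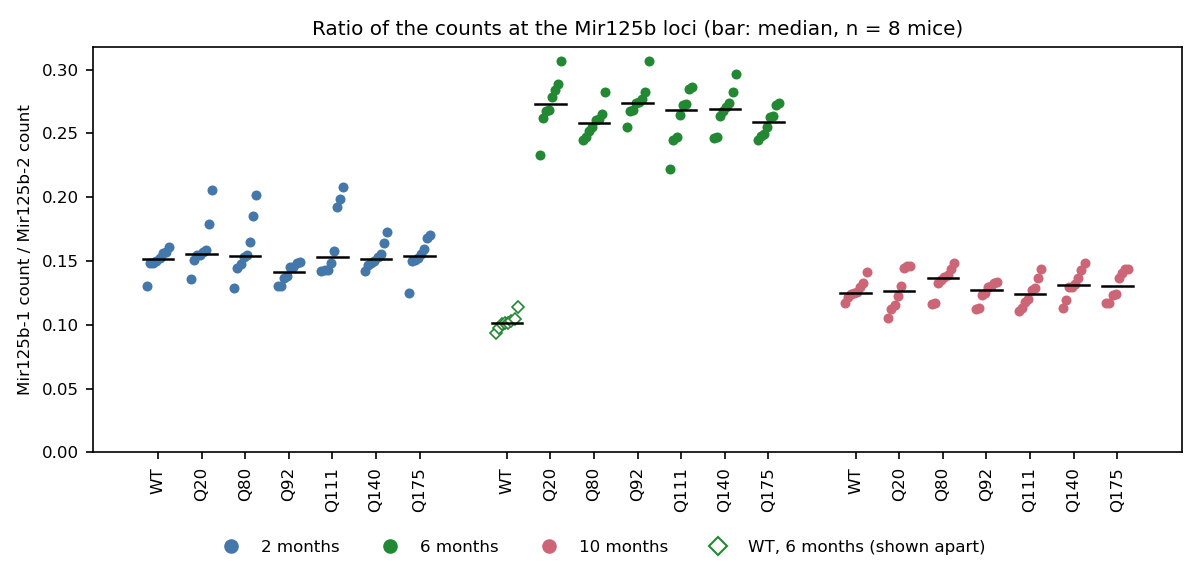
Mir125b-1 count divided by Mir125b-2 count in each library (vertical axis, linear from 0) for the 7 genotypes at 3 ages (horizontal axis). Points are mice and bars medians of 8 mice; the 6m groups lie between 0.222 and 0.307 and above all others, and the 6m WT libraries (open diamonds) have the lowest median, 0.102, and overlap the 10m libraries.

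The main question of the study was whether microRNAs change with the length of the CAG repeat. For these families the fitted changes at 6m were small and positive, but no member was called at any single age. The members are not independent, as their levels correlated across libraries (below). The coefficient, the log2 change per 100 CAG, was positive for 6 of 6 members at 6m, but none was called, against 2.75% of all microRNAs. It was 0.13 ± 0.04 for Mir125b-2 (SE, n = 48; edgeR, adjusted p = 0.109), 0.10 ± 0.04 for Mir125b-1 (adjusted p = 0.194), 0.09 ± 0.03 for Mir99a (adjusted p = 0.125) and 0.08 ± 0.04 for Mir125a (adjusted p = 0.240). Those of Mir100 (0.07 ± 0.05) and Mir99b (0.05 ± 0.05) were within about 1 SE or little more of 0, and turned negative without Q175. With lane as a covariate, 0 of 327 microRNAs were called at 6m. At 10m no member was called (8.84% of all were), the coefficients ranging from −0.04 for Mir99b to 0.06 for Mir125b-1. At 2m no member and 0% of all microRNAs were called, and the coefficients ranged from −0.02 for Mir125a to 0.06 for Mir99a. The median coefficient of the 6 members was 0.01, 0.08 and 0.02 at 2m, 6m and 10m, against −0.0044 over all microRNAs at 6m and values closer to 0 at the other ages. For a change of the association between 2m and 10m, 0 members were called (1.83% of all).

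With the Z statistics of 6m and 10m summed and divided by the root of their number, 3 of 6 members were called, all upward, against 11.9% of all microRNAs called and 5.81% called upward. They were Mir99a (Z = 3.03, adjusted p = 0.0239), Mir125b-1 (Z = 2.81, adjusted p = 0.0423) and Mir125b-2 (Z = 2.77, adjusted p = 0.0474). Mir99a and Mir125b-2 are the pair in Mir99ahg. With both Mir125b loci summed, Z was 3.04 (adjusted p = 0.0265). Mir125a had a Z of 1.45, Mir100 of 0.77 and Mir99b of −0.22. These calls rested on Q175. Without it, Z was 1.59 for Mir99a, 1.02 for Mir125b-1 and 1.03 for Mir125b-2, and no member and 1.22% of all microRNAs were called. With lane as a covariate Mir99a alone was called, and with Q20 as the only controls or with all transcripts fitted none was. Over all alternatives, and counting calls of either sign, Mir99a was called in 10 of 14, Mir125b-1 in 7 of 13 and Mir125b-2 in 6 of 13.

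**Figure D3:**
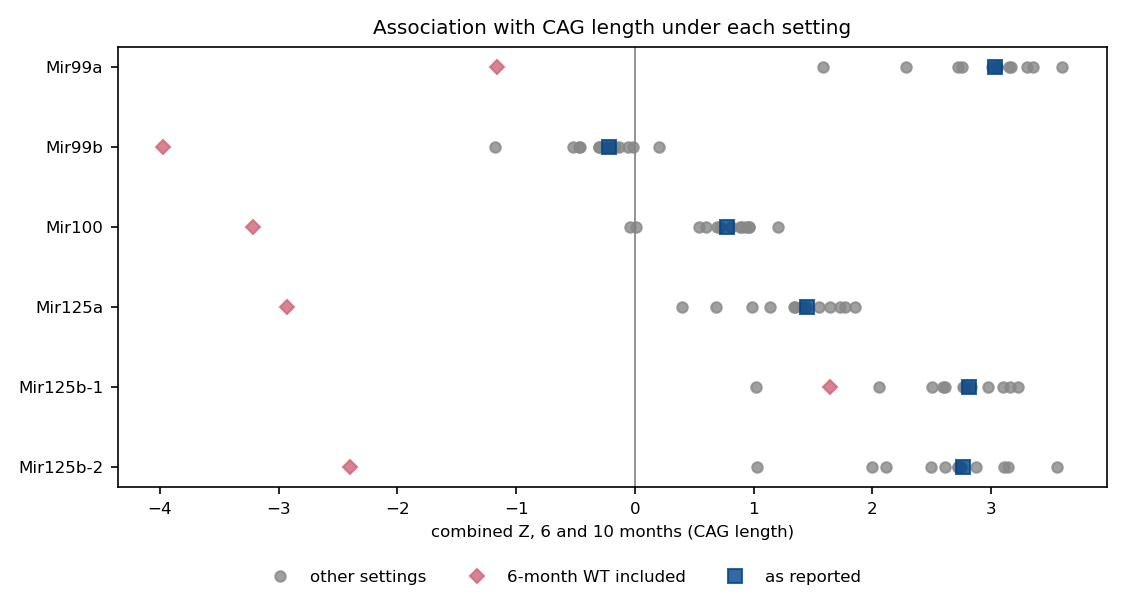
Combined Z of each member for association with CAG length over 6m and 10m (horizontal axis). The blue square is the value as reported, grey points are the alternatives, and the red diamond is the fit with the 6m WT libraries. Mir99a, Mir125b-1 and Mir125b-2 lie at 3.03, 2.81 and 2.77 as reported, and 5 of the 6 diamonds lie below 0.

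Among the single genotypes, Q175 at 6m differed most, without reaching the threshold. All 6 members had positive differences from Q20. Of them, 5 had an unadjusted edgeR p under 0.05, as had 51 of 325 microRNAs, and 0 were called, against 2.77% of all microRNAs. The median of the 6 log2 differences was 0.20, and that of all microRNAs 0.03. Mir125b-2 in the 8 Q20 mice had 6643, 7444 and 8610 CPM (lowest, median, highest), and in the 8 Q175 mice 7562, 9258 and 11681. Of the Q175 libraries, 6 of 8 lay above every Q20 library, and the lowest lay within the Q20 range. The difference was 0.31 ± 0.09 on the log2 scale (SE, n = 16; 1.24-fold, adjusted p = 0.0534). Library code (LB or V in the labels) was a covariate, and all Q20 libraries of 6m carried LB. The fitted differences of Q175 from Q20 at 6m therefore rest in effect on the LB libraries of Q175, whereas the ranges and counts hold all 8.

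Mir125b-1 had 1944, 2021 and 2448 CPM in Q20 and 1889, 2438 and 2984 in Q175, with 4 of 8 Q175 libraries above every Q20 library. Its difference was 0.26 ± 0.08 (adjusted p = 0.106). Mir125a had 12034, 12983 and 14378 CPM in Q20 and 12831, 14852 and 19272 in Q175, with 6 of 8 above. Its difference was 0.22 ± 0.07 (adjusted p = 0.135). Among the ACCCGUA genes, Mir99a had 930, 1007 and 1108 CPM in Q20 and 1031, 1153 and 1204 in Q175, also with 6 of 8 above. Its difference was 0.16 ± 0.05 (adjusted p = 0.128). Mir99b, with 6 of 8 above, differed by 0.17 ± 0.07 (adjusted p = 0.252), and Mir100, with 1 of 8 above, by 0.15 ± 0.08 (adjusted p = 0.358).

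The Q175 library M2 had the lowest Q175 value of all 6 members, and M3, the library with the highest total of the study, the highest of the 3 Mir125 genes. Without M3, the differences of Mir125a, Mir125b-1, Mir125b-2 and Mir99b dropped to 0.11, 0.14, 0.20 and 0.09 on the log2 scale, and 0 members and 0.926% of all microRNAs were called. Without M2, Mir125a, Mir125b-1 and Mir125b-2 were called (0.27, 0.32 and 0.37), with 5.54% of all microRNAs. Without the Q20 library F3, Mir125b-2 was called (0.32), with 3.38% of all. At 6m the Q175 libraries ran on lanes 1 and 2 or carried the library code V (3 of 8), and the Q20 libraries ran on lanes 3 and 4. As no lane number was shared, genotype and lane cannot be told apart in this comparison. The summed neuronal markers ran from 83686 to 92359 CPM in Q175 and from 86179 to 99480 in Q20. The vessel markers had medians of 35365 and 38460, and the part of either in the difference was not tested.

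Lanes shared with Q80 allowed a limited comparison at 6m. Lane was a covariate, but the only Q80 library on lane 1 was F4 and the only Q175 library on lane 2 was M4. Genotype and lane were thus nearly confounded, and the Q175 libraries are among those already compared with Q20. For 5 Q175 and 6 Q80 libraries on lanes 1 and 2, the differences were positive for 6 of 6 members, none was called, and 0% of all microRNAs were. The largest was that of Mir100, 0.31 ± 0.09 (SE, n = 11; adjusted p = 0.571), with 1781, 1926 and 2140 CPM in Q80 and 2063, 2489 and 2707 in Q175. Mir99a differed by 0.18 ± 0.07 (adjusted p = 0.800) and Mir125b-2 by 0.20 ± 0.12 (95% interval −0.04 to 0.43). Of the 6 members, 2 had an unadjusted edgeR p under 0.05, as had 19 of 324 microRNAs. For Q140 against Q92 on lanes 5 to 7, 0 members were called (0.310% of all), and the coefficients ran from −0.11 for Mir125a to 0.11 for Mir99a.

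At 10m Q175 showed no general increase. None of the 6 was called, against 12.2% of all microRNAs, and 4 of 6 differences were positive. Mir125b-1 had the largest difference, with 1456, 1784 and 2226 CPM in the 16 controls and 1844, 2002 and 2194 in Q175, and 8 of 8 Q175 libraries above the control median. In Q92 at 10m 8 of 8 also lay above it, and no Q175 library exceeded the highest control. The Q175 difference of Mir125b-1 was 0.12 ± 0.05 (SE, n = 24; adjusted p = 0.172). Mir125b-2 differed by 0.08 ± 0.05, Mir99a by 0.06 ± 0.04, Mir125a by 0.02 ± 0.05, Mir100 by −0.05 ± 0.08 and Mir99b by −0.09 ± 0.08. At 2m Mir99a was 0.13 ± 0.04 higher in Q175, without a call (adjusted p = 0.577). It had 1016, 1117 and 1332 CPM in controls and 1162, 1205 and 1319 in Q175, with 8 of 8 above the control median, and no member and 0% of all microRNAs were called.

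**Figure D4:**
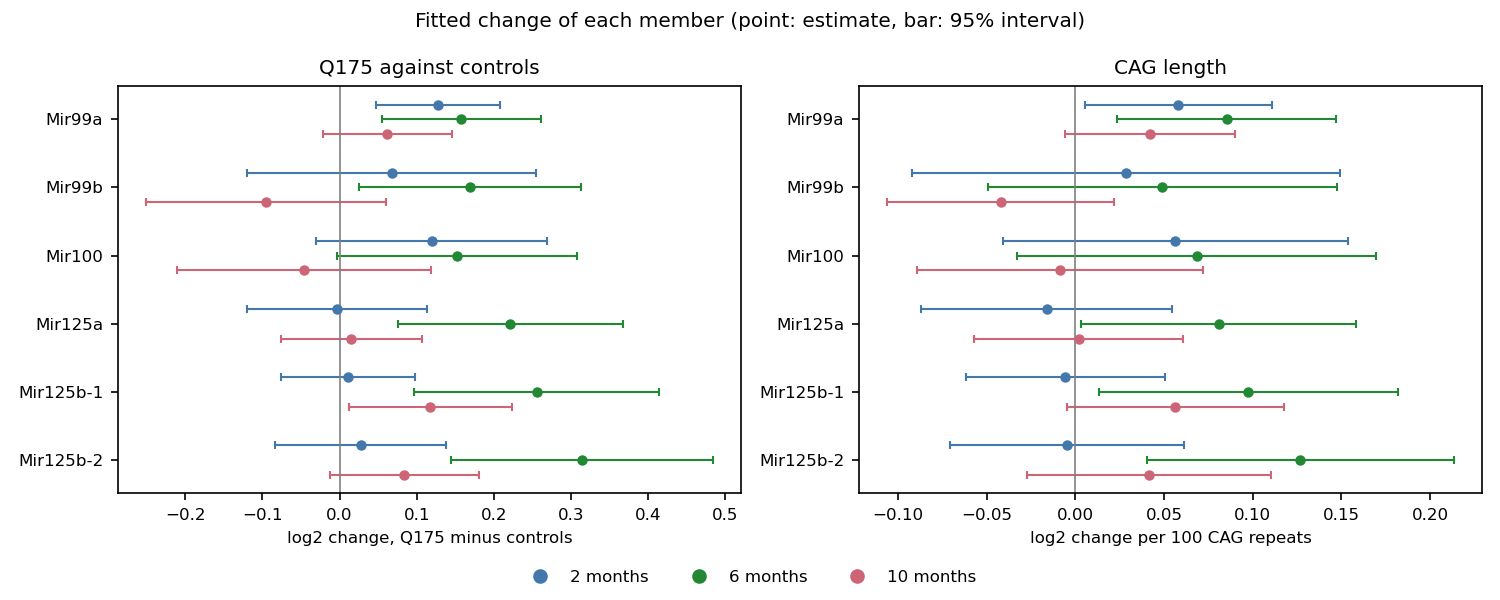
Fitted change of the 6 members in Q175 against controls (left, log2) and per 100 CAG (right, log2), with points in colour for 2m, 6m and 10m and bars for 95% intervals. At 6m all 6 points of Q175 lie above 0, up to 0.31 for Mir125b-2, and at 10m they spread from −0.09 to 0.12.

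The shorter alleles gave small differences. For Q80, Q92, Q111 and Q140, 24 coefficients per age were fitted, and none was called at any age. At 6m those of Q80, Q111 and Q140 rest in effect on their LB libraries, as Q20 had no V libraries. All microRNAs were called in 0% of these fits except Q92 at 6m (0.311%). The coefficients ran from −0.11 to 0.14 on the log2 scale at 2m, from −0.19 to 0.11 at 6m and from −0.10 to 0.12 at 10m. Their extremes were Mir125a in Q92 at 2m (0.14 ± 0.06, adjusted p = 0.222) and Mir100 in Q80 at 6m (−0.19 ± 0.07, adjusted p = 0.650). Mir125b-2 in Q92 at 10m was 0.12 ± 0.05 higher (adjusted p = 0.647). For sex, 0 members were called in 160 libraries (0.915% of all), and the largest coefficient of a member was −0.04 on the log2 scale, for Mir100.

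The libraries labelled 6m WT were compared with the 8 Q20 libraries of 6m, which are also controls. All 6 members were higher in the 6m WT libraries and all were called, against 55.0% of all microRNAs called and 29.2% called as higher. Mir125b-2 had 16843, 23613 and 26730 CPM (lowest, median, highest), and its lowest value was above the highest Q20 library (8610). The difference was 1.63 ± 0.09 on the log2 scale (SE, n = 16; 3.09-fold, adjusted p = 1.02e-09). Mir100 had 2403, 6246 and 6846 CPM, a difference of 1.37 ± 0.16 (adjusted p = 2.80e-06). Mir99b had 4352, 11293 and 13194 CPM, a difference of 1.30 ± 0.16 (adjusted p = 2.80e-06). In both, the library F3 lay far below the other 7 and within the Q20 range. Mir125a was 1.13 ± 0.07 higher (adjusted p = 1.35e-09) and Mir99a 0.76 ± 0.08 (adjusted p = 1.03e-06). Mir125b-1 had 1917, 2370 and 2730 CPM and overlapped Q20, a difference of 0.20 ± 0.08 (adjusted p = 0.0390). Its call was lost under 5 alternatives, among them library size alone (0.03).

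Between WT and Q20 mice at 2m and 10m, 0 of 6 members and 0% of all microRNAs were called at either age. A fit of all 48 WT and Q20 libraries, added after seeing the data, tested whether the difference at 6m departed from that at the other ages. It did for 5 of 6 members, from 0.68 ± 0.07 for Mir99a to 1.52 ± 0.09 for Mir125b-2 on the log2 scale, and not for Mir125b-1 (0.15 ± 0.09, adjusted p = 0.153). The same interaction was called for 50% of all microRNAs. The let-7 partners moved the other way in the 6m WT libraries, Mirlet7c-1 by −1.29 ± 0.15 and Mirlet7a-2 by −1.46 ± 0.15 on the log2 scale. Mir10b was 1.86 ± 0.25 and Mir10a 0.61 ± 0.12 higher. Summed neuronal markers ran from 97219 to 142190 CPM in the 6m WT and from 86179 to 99480 in the 6m Q20 libraries. The vessel markers ran from 22499 to 52518 and from 34536 to 41729. Oligodendrocyte markers (3 of 4 with a transcript) had medians of 2196 and 3287, and Mir122 of 6.49 and 1.37. Their part was not tested, and WT genotype at 6m and sequencing cannot be told apart. As a share of all counts, the 6 members made up 6.39% in the 6m WT libraries (median), 2.94% to 3.37% in the other 6m groups, 4.13% to 4.46% at 2m and 4.44% to 4.75% at 10m.

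Ratios between cluster partners were compared in Q175 and controls, since a ratio within a library needs no normalization. In 12 exact permutation tests (4 ratios at 3 ages, two-sided) none was called after adjustment. These tests had no covariate, so that at 6m they set V and LB libraries of Q175 against LB libraries of Q20. Mir100 to Mir125b-1 at 10m had the lowest p. Its log2 ratio ran from 0.02 to 0.74 in the 8 Q175 mice and from 0.39 to 0.92 in the 16 controls, a difference of −0.18 (exact p = 0.0263, adjusted p = 0.265). Mir99b to Mir125a at 6m differed by −0.00059 (exact p = 0.989).

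Once the group means, sex and library code were removed, all 15 pairs of members had a positive residual correlation, and the highest values joined genes of the same seed on different chromosomes. Over 160 libraries the residual log2 CPM of Mir125a and Mir125b-2 had a Pearson r of 0.90. Among the ACCCGUA genes r was 0.85 for Mir99b with Mir100, 0.74 for Mir99a with Mir100 and 0.58 for Mir99a with Mir99b. Within clusters r was 0.56 for Mir99a with Mir125b-2, 0.56 for Mir100 with Mir125b-1 and 0.26 for Mir99b with Mir125a, only 624 bp apart. Mir125b-1 was no closer to the genes of its own seed, with an r of 0.56 with Mir125b-2 and 0.48 with Mir125a. The lowest pair of members was Mir99b with Mir125b-2 (0.20). With the let-7 partners r lay between −0.12 and 0.23, and the median r of a member with 173 other microRNAs was −0.0015 to 0.065. These values describe libraries that share depth, lanes and total counts, and genes that share sequence, and carry no test.

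**Figure D5:**
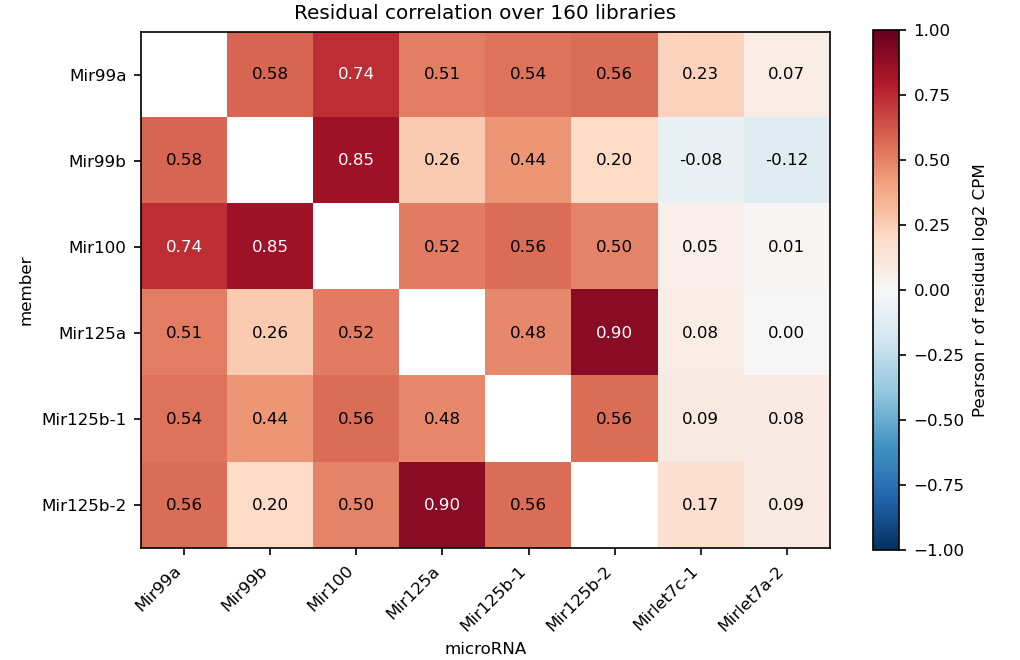
Pearson r of residual log2 CPM over 160 libraries between each member (rows) and the members and let-7 partners (columns), from blue (negative) to red (positive), with each value printed. The highest values are Mir125a with Mir125b-2 (0.90) and Mir99b with Mir100 (0.85); the let-7 columns lie near 0.

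Outside the families, 168 microRNAs with a mean of at least 50 CPM were ranked by the same r. Mir99b was closest to Mir501 (0.89), as was Mir100 (0.70), an X-linked gene whose 3p strand is shown, with bases 2 to 8 in capitals, because its r with Mir99b exceeded that of any member.
miR-501-3p: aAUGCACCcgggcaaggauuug
Mir125b-2 and Mir125a were closest to Mir128-2, a neuronal microRNA (0.66 and 0.51), and next to Mir23a (0.65 and 0.48). Mir99a was closest to Mir26a-2 (0.46) and Mir128-2 (0.41), and Mir125b-1 to Mir92b and Mir128-2 (0.48 each). The second place for Mir99b was far behind, at Mir300 (0.46), and for Mir100 at Mir674 (0.37).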

How the data were processed

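The authors extracted cortex RNA, sequenced small RNA libraries as single-end, strand-specific reads, clipped them, and aligned them to mm10 with STAR. CASAVA 1.8.2 is named per the labels. The authors deposited an estimated count per Ensembl transcript and library, not normalized and often not whole (48.1% of values above 0), although the methods name HTSeq. FPKM values were also deposited and not used here. Groups, sex and library codes came from the labels. In 2 libraries the labelled sex differs from the cage, and the cage was used.

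Estimated counts were rounded and tested with edgeR 4.0.16 in R 4.3.3: TMM normalization and the quasi-likelihood F test (robust, two-sided). Covariates were sex and, at 6m, library code. Fits held all microRNAs of the study's list with at least 1 count, adjusted together by Benjamini-Hochberg (called: adjusted p under 0.05). Standard errors are |log2 coefficient| divided by the root of F. WT was taken as Q = 7. Ratios used exact permutation tests (scipy 1.17.1), with 0.5 added to each count. DESeq2 1.42.0 served as an alternative. The scripts were tested on simulated data. The genes that could be named were the 6 members, which were tested in every comparison, the let-7 partners, Mir10a, Mir10b and the 2 microRNAs most like each member. Members, lists and tests were chosen with earlier results of these data known.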

Additional observations from a re-analysis of the deposited data

Results flagged for a closer look

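Within groups of 8 mice, 13 of 126 combinations of member and group had a library whose gap to its nearest neighbour exceeded Dixon's 95% critical value (0.526), where chance gives about 5%. They came from 10 libraries. The Q111 library F2 at 6m was lowest for 3 members of the ACCCGUA seed, with 795 CPM of Mir99a, 2745 of Mir99b and 1318 of Mir100. The 6m WT library F3 was lowest for Mir99b (4352 CPM) and Mir100 (2403 CPM). At 2m, Mir99b was low in Q20 M4 (3396 CPM) and Q175 F4 (3246 CPM). At 10m, Mir100 was high in Q20 M1 (3990 CPM) and low in Q111 M1 (2097 CPM), and Mir125b-2 was low in Q140 F2 (10009 CPM). Mir125b-1 was high in Q20 F3 at 6m (2448 CPM), WT F1 at 10m (2226 CPM) and Q111 M2 at 10m (2117 CPM).

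The difference between WT and Q20 at 6m departed from that at 2m and 10m for 5 of 6 members by the interaction term of edgeR, in a fit added after seeing the data. The same term was called for 50% of all microRNAs. It was larger at 6m by 0.68 (Mir99a), 1.29 (Mir99b), 1.36 (Mir100), 1.01 (Mir125a) and 1.52 (Mir125b-2) on the log2 scale.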

How the results depend on the processing

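Of 135 counts of members called under an alternative, 121 stayed within 1.5 times the main count. Most main counts were 0, and a count of 0 that stayed at 0 was taken as unchanged, so that this share says little about the calls. Of the 3 members called for CAG length over 6m and 10m, 1 (Mir99a) was called with library size alone (12.2% of all microRNAs called) and with lane as a covariate (36 of 327), and 0 were with all transcripts fitted (3.71%), with Q20 as the only controls (14.1%) and without Q175 (1.22%). With relative log expression normalization or with DESeq2, 2 of the 3 were called (11.6% and 12.5% of all microRNAs). At 6m, CAG length went from 0 to 1 member with library size alone (3.36% of all microRNAs called) or without the library code (4.59%) and to 5 with the 6m WT libraries (47.7%). At 10m it went from 0 to 1 with lane (10.1%). Without the library code, 2 members were called for the mutant genotypes of 6m and the same count for Q175 over both ages (4.62% of all in Q175 at 6m). Leaving out single libraries gave 0 to 3 called for Q175. The cause was not tested.

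With the 6m WT libraries, the CAG coefficients at 6m turned to −0.22 (Mir99a), −0.51 (Mir99b), −0.54 (Mir100), −0.39 (Mir125a) and −0.60 (Mir125b-2). The combined Z turned to −1.16 (Mir99a), −3.21 (Mir100), −2.93 (Mir125a) and −2.40 (Mir125b-2). The Q175 differences at 6m turned to −0.31 (Mir99a), −0.67 (Mir99b), −0.74 (Mir100), −0.48 (Mir125a) and −0.76 (Mir125b-2). Changes of sign close to 0 were the CAG coefficient of Mir125a at 10m with relative log expression normalization (−0.0059), library size alone (−0.023), DESeq2 (−0.0059), filterByExpr (−0.0027), all transcripts (−0.0033) and without Q175 (−0.011), and that of Mir100 at 10m with lane (0.0081) and without Q175 (0.0099). Without Q175, those of Mir99b and Mir100 at 6m were −0.035 and −0.019, and the combined Z of Mir100 −0.045. Without the library code, the combined Z of Mir99b was 0.20. For Q175 at 10m, Mir125a was −0.0082 with library size alone. With single libraries left out, Mir125a ranged from −0.0094 to 0.036 (below 0 without Q175 M3 or F4) and Mir100 from −0.098 to 0.012 (above 0 without Q175 M1 or Q20 M1). The calls of Mir99a, Mir99b, Mir100, Mir125a and Mir125b-2 for age and for WT against Q20 at 6m held under every alternative run for them.

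Replicate numbers did not pair the mice. Same-numbered libraries of an age had a median residual correlation of −0.13 (2m), −0.25 (6m) and −0.03 (10m). With the replicate block, 1 member (Mir125b-2) was called for CAG length at 6m (4.59% of all microRNAs), 1 for the mutant genotypes of 6m and 1 for Q175 over both ages (2.15% of all in Q175 at 6m), and the CAG coefficient of Mir125a at 10m was −0.0016. Fits of 6m genotypes with lane, except that of Q111, and of Q140 against Q92 on shared lanes with the block, could not be estimated.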
